A study of Caenorhabditis elegans with 2 samples.

Results

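Among the candidate regions for tagged ODD-2 in late embryos of Caenorhabditis elegans, 910 stronger promoter regions lay away from short RNA genes. By their label the candidates are peaks and background, and 825 of the 910 were not in the authors' set of reproducible peaks (the IDR set). The 910 were selected on the pooled signal. A pooled candidate region of the nuclear genome counted as a member when its signal was at least 42, when its summit (the position of highest signal) lay 1000 bp upstream to 200 bp downstream of the annotated 5' end of a protein-coding transcript, and when no tRNA, snRNA, snoRNA or rRNA gene lay within 200 bp of that summit. The pooled file holds 30000 candidate regions, of which 29976 are nuclear and 2666 of these reach the threshold. A further 7933 regions meet the same location rule with a signal below 42 and are called weaker promoter regions here. The signal is the authors' value per region, and its scale is not stated.

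The animals were hermaphrodites of strain OP405, which carries the unc-119(tm4063) III allele and the integrated transgene wgIs405. The transgene encodes ODD-2 fused at its C terminus to GFP and FLAG. Chromatin of whole late embryos was sonicated, and an antibody against GFP was used for the precipitation. There was 1 group of 2 biological replicates and no second condition, so the comparisons are between kinds of region and not between treatments. Regions are not replicates of a condition, so shares carry exact 95% binomial intervals (Clopper-Pearson), which cover counting error only, and no test was made. Read depth is unknown. Libraries of worms without the tag were not analysed here.

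ODD-2 belongs to the Odd-skipped family of zinc-finger proteins, named after a Drosophila gene needed for embryonic segmentation. In C. elegans the family is known for roles in development of the gut. Many worm genes stand head to head and share the DNA between their 5' ends, an arrangement called a divergent promoter. Many worm transcripts are trans-spliced, a step in which a short leader replaces the original 5' end, so the annotation may place a 5' end inside the original transcript.

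The sequences at the summits are printed for 8 of the strongest members, in the reading direction of the nearest gene. No word marked in them is present in all 8 runs. K05C4.2, ears-2 and spe-48, whose signals lie among those of the 8, are not printed. The sequences come from the RefSeq genome of assembly WBcel235, which is the ce11 build of the deposited files. Base 76 of each run is the summit. Each run ends 75 bp from the summit or where an annotated exon of a protein-coding gene begins, which shortened those of idhg-1 and atx-2. Capitals mark 6 words on either strand, and neighbouring words can run together. They are the word CCGCCC, the word GCGCAC with its shifted form CGCACA, the word CCGCAC, and the less GC-rich words TTGCGAAA and also TTGCAA. The runs lie at chrIII:4568674-4568796 on the plus strand (idhg-1), chrIII:10461240-10461388 plus (atx-2), chrIII:5555050-5555200 minus (nmad-1), chrV:4731496-4731646 plus (F39G3.3), chrX:11605837-11605987 minus (ftt-2), chrV:7230983-7231133 plus (krr-1), chrIII:3664368-3664518 minus (C46F11.4) and chrIII:4171114-4171264 plus (C16C10.4).
idhg-1: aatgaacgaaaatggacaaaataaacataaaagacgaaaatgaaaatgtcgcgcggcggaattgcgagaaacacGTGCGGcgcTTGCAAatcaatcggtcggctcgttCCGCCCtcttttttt
atx-2: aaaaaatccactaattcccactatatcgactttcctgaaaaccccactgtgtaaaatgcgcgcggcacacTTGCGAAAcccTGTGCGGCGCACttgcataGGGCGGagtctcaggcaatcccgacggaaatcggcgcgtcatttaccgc
nmad-1: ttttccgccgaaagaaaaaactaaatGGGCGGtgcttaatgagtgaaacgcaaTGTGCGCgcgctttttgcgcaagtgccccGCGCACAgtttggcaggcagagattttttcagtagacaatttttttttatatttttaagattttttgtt
F39G3.3: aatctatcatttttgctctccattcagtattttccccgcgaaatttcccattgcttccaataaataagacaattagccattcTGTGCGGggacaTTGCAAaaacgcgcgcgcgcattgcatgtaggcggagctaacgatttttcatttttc
ftt-2: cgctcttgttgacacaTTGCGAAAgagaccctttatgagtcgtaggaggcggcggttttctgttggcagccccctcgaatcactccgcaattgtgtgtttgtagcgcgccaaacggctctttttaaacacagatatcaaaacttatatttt
krr-1: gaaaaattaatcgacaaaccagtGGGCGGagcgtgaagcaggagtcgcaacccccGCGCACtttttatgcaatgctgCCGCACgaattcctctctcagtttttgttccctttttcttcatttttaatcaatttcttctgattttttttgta
C46F11.4: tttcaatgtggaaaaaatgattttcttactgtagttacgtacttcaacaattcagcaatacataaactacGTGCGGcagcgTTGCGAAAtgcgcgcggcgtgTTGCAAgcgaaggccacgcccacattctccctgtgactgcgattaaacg
C16C10.4: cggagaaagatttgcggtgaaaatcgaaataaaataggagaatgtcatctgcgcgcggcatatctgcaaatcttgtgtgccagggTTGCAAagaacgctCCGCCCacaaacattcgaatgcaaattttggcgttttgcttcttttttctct

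The pair of genes at the strongest member is idhg-1, which encodes a subunit of the mitochondrial NAD-dependent isocitrate dehydrogenase of the tricarboxylic acid cycle, and mlcd-1, a malonyl-CoA decarboxylase of fatty acid metabolism. The pooled signal of this region was 340.6, with 165.8 in replicate 1 and 177.9 in replicate 2. Its summit lay 48 bp upstream of idhg-1 and 619 bp upstream of mlcd-1, in intergenic DNA. In the printed run CCGCAC, read from the other strand, lies across the summit. A TTGCAA follows just after it, and further on there is a CCGCCC as well.

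The summit of K05C4.2, the next member by signal, had a pooled signal of 288.1, with 139.3 in replicate 1 and 148.3 in replicate 2. It lay in an intron annotation 288 bp upstream of a single gene. The region between atx-2, the ataxin-2 homologue that binds RNA, and ecps-1, whose product is related to the proteasome component Ecm29, had a pooled signal of 265.3, with 131.5 in replicate 1 and 127.0 in replicate 2. Its run holds TTGCGAAA, CCGCAC and GCGCAC within a few bases of each other and a CCGCCC (as GGGCGG) shortly after them. These 3 regions were the strongest members in both replicates, and neither replicate was the higher at all 3.

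Of the 25 strongest members 16 were divergent. The promoter of nmad-1, annotated as a DNA N6-methyl adenine demethylase, and hach-1, a mitochondrial 3-hydroxyisobutyryl-CoA hydrolase of valine breakdown, had a pooled signal of 218.4 (110.4 in replicate 1 and 108.5 in replicate 2). The summit shared by ears-2, a mitochondrial glutamyl-tRNA synthetase, and uncp-18, a syntaxin-binding protein, lay 8 bp from the first and 84 bp from the other, and the region had 203.9 pooled (92.1 and 112.1). These ends are 91 bp apart, so the region cannot be given to either gene.

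Members of somewhat lower signal had products of several kinds. The krr-1 and gei-6 pair, krr-1 encoding a component of the small subunit processome that builds ribosomes, had a pooled signal of 182.2 (93.0 in replicate 1 and 93.4 in replicate 2). C46F11.4, annotated as an RNA helicase, had 180.4 (84.4 and 98.2). C16C10.4, annotated as a SAP18 subunit of a histone deacetylase complex, shares its promoter with the ubiquitin ligase gene rnf-121 and had 172.1 (78.1 and 90.3).

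Single promoters of high signal included ftt-2, which encodes a 14-3-3 protein that binds phosphorylated partners. Its pooled signal was 206.9, with 92.7 in replicate 1 and 116.9 in replicate 2, and the summit lay 493 bp upstream within an annotated noncoding gene. The summit of F39G3.3, whose RefSeq product is a histone H3-K79 methyltransferase, had 210.0 (92.9 and 115.3). The swsn-3 gene, an HMG-box protein of the SWI/SNF chromatin remodelling family, had 166.1 (84.96 and 80.38) in an intron annotation 164 bp upstream.

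The 2 replicates diverged most within the top group at ccdc-47, mtss-1 and T13C5.6. The promoter of ccdc-47, a subunit of a complex that inserts membrane proteins at the endoplasmic reticulum, had 58.4 in replicate 1 and 96.5 in replicate 2. The promoter of mtss-1, the single-stranded DNA-binding protein of mitochondria, had 43.8 in replicate 1 and 76.5 in replicate 2. T13C5.6 went the other way, with 73.7 in replicate 1 and 46.3 in replicate 2. Replicate 2 was higher in 17 of the 25 and replicate 1 in 8. The replicate files were not rescaled to each other.

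**Figure D1:**
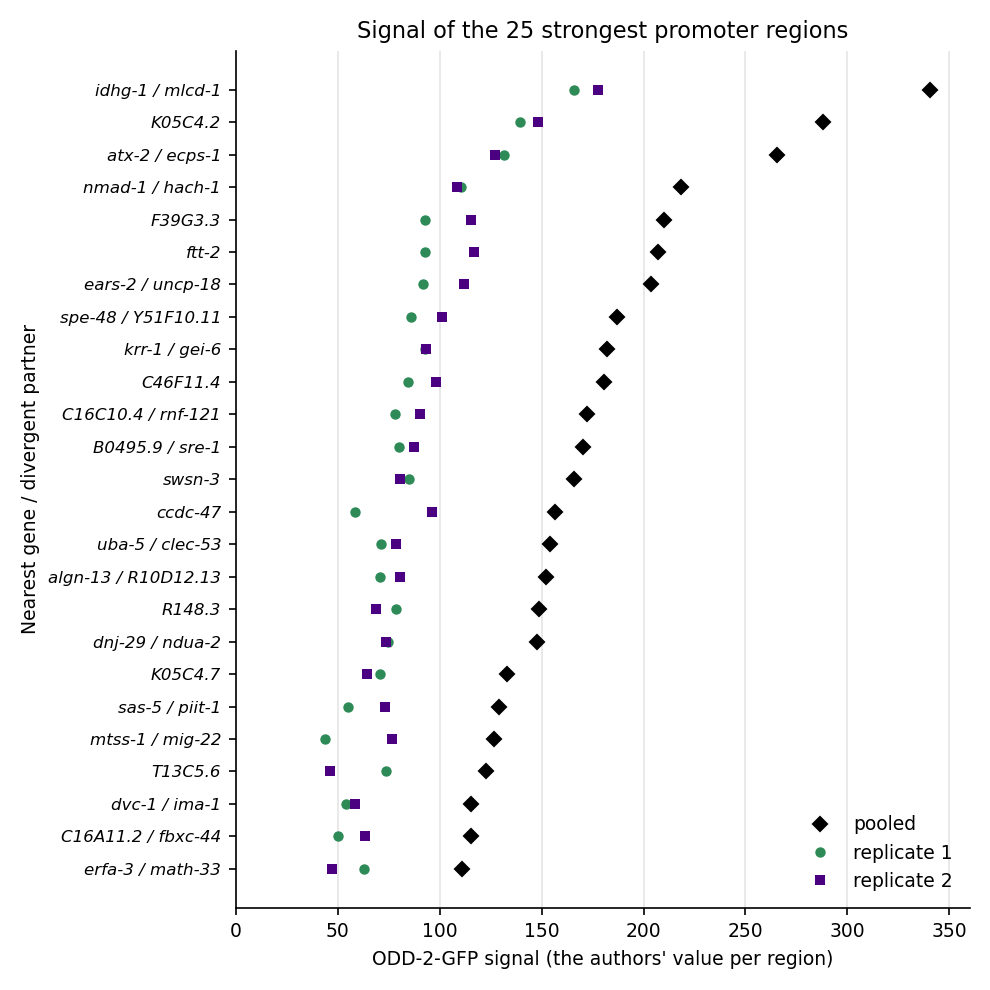
Signal per region (x axis, the authors' value, linear) for the 25 members of highest pooled signal, named by nearest gene and divergent partner (y axis); diamonds are the pooled value, circles replicate 1 and squares replicate 2. Pooled values run down to 111 at erfa-3 / math-33, and the replicate values lie side by side except at genes such as ccdc-47, mtss-1 and T13C5.6.

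The pooled signal of the members ran from 42.0126 to 341 with a median of 46.1. Signals of 42 to 50 made up 658 members, 162 had 50 to 60, and 90 had 60 or more. Weaker promoter regions ran from 24.6 to 41.9932 with a median of 30.2. At the threshold, sbsp-1 (42.0203), feh-1 (42.0202) and F09G2.8 (42.0126) were just inside, while nrfl-1 (41.9932), lsy-12 (41.9697) and Y38H6C.13 (41.9548) were just outside. The distribution has no gap at 42, so the threshold divides a continuous range.

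The authors' IDR set, labelled as the optimal one, holds peaks that passed an irreproducible discovery rate threshold. By its label this set was derived from the candidate regions of both replicates and of the pooled reads. Of the 910 members, 85 were in it (9.34%), against 0.791% of all nuclear candidate regions. The rule used the same reads, so nothing is read from that share. The pooled signals of the 85 (61.8 to 341, median 86.4) did not overlap those of the other 825 (42.0126 to 61.1, median 45.6). The IDR members of lowest signal were srrt-1 (61.8), a homologue of the RNA effector Serrate, R12C12.6 (61.9), F32A5.8 (62.0) and cki-1 (62.3), a cyclin-dependent kinase inhibitor. The highest outside were cul-1 (61.1), a cullin of ubiquitin ligases, tbc-20 (60.9), cdc-14 (60.9) and C30G4.4 (60.7). For these promoters IDR membership therefore amounts to a rank in pooled signal.

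**Figure D2:**
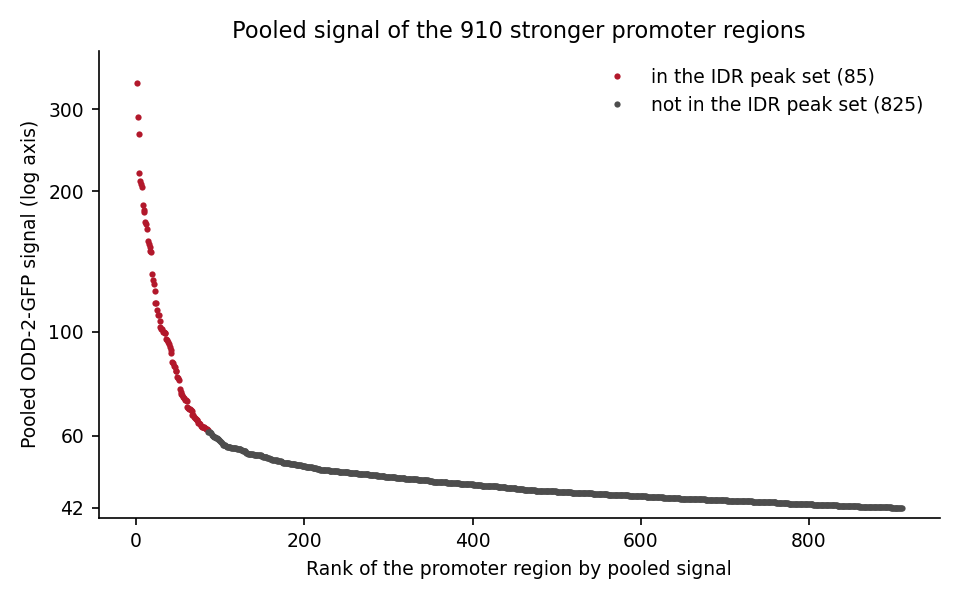
Pooled signal (y axis, log scale) of the 910 members in order of signal (x axis, rank), with members in the IDR peak set in red and the others in grey. The 85 IDR members form the steep left end from 341 to 61.8, and the other 825 form a long tail down to 42.0126.

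The replicate files listed most members separately. A candidate summit within 100 bp was present in both replicates for 755 of the 910 (83.0%, interval 80.4 to 85.4%), against 30.1% of all nuclear candidate regions and 25.8% of weaker promoter regions. It was present in both for 82 of the 85 IDR members and for 673 of the 825 others. Of the rest, 76 members had a summit in replicate 1 only and 78 in replicate 2 only, and Y71G12B.18 (pooled signal 47.2) had none in either. Because pooled regions draw on both replicates' reads, a strong pooled region had to be strong in at least 1 of them, so these shares describe the files and are not independent support.

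The 3 IDR members with no summit within 100 bp in replicate 1 were spe-39, rpn-6.1 and atg-18. Of these, spe-39 takes part in vesicle fusion and sperm formation, rpn-6.1 is a proteasome subunit and atg-18 is an autophagy gene. Their pooled signals were 68.9, 68.4 and 68.3, and their replicate 2 signals were 39.7, 31.0 and 51.6. Outside the IDR set the strongest members with none within 100 bp in replicate 2 were gfi-3 (58.0 pooled, 32.4 in replicate 1), tomm-70 (54.5 and 27.0), ztf-11 (53.1 and 36.4) and hip-1 (51.1 and 21.5). Such a member can still have a summit farther away in that replicate. Within 200 bp, 91.4% of all members had a summit in both replicates.

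Where both replicates had a summit, their signals had a Spearman rho of 0.716 over 82 IDR members. The IDR set was itself derived from the replicate and pooled candidate regions, so this agreement is not independent of that choice. Over the other 673 the rho was -0.481. Pooled signal was close to the sum of the replicate signals (median ratio 1.04), and these 673 were selected from a narrow range of pooled signal, so a higher value in 1 replicate goes with a lower one in the other by that selection. The rho values describe regions within the same pair of libraries. The replicate summits of a region were a median of 16.5 bp apart in IDR members and 20 bp in the others.

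The replicate signals differed by more than 2-fold at 47 of the 755 regions, 3 of them in the IDR set. The highest ratio belonged to sms-3, a sphingolipid-forming enzyme, with 53.1 in replicate 1 and 20.6 in replicate 2. The lowest in the IDR set belonged to mrpl-39, a mitochondrial ribosomal protein gene, with 18.4 in replicate 1 and 44.7 in replicate 2. Taken on its own, replicate 1 had 61 of the IDR members among its 85 strongest regions of the same location rule, and replicate 2 had 65.

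**Figure D3:**
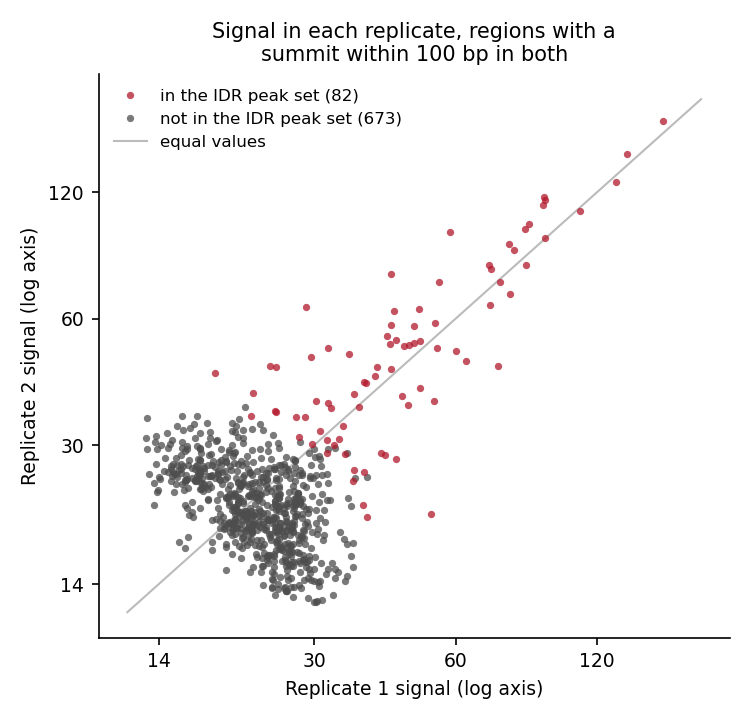
Replicate 1 signal (x axis) against replicate 2 signal (y axis), both log scales, for the 755 members with a summit within 100 bp in both; red points are in the IDR peak set, grey points are not, and the line marks equal values. The 82 red points extend along the line up to 165.8 and 177.9, and the 673 grey points form a cloud tilted across it.

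Divergent promoters made up 42 of the 85 IDR members (49.4%, interval 38.4 to 60.5%), 117 of the 825 other members (14.2%, 11.9 to 16.8%) and 836 of the 7933 weaker promoter regions (10.5%, 9.87 to 11.2%). Over all members the share was 17.5% (159 of 910). The rule did not use gene orientation. In order of signal it was 10.1%, 9.61%, 12.4% and 10.7% in the bands below 42 and 14.4%, 10.1% and 17.9% in the bands from 42 to 60. It was 43.8% from 60 to 90 and 54.8% from 90. The 85 strongest promoter regions of each replicate alone gave 41.2% in replicate 1 and 42.4% in replicate 2, where the regions below the strongest 910 gave 10.1% and 10.4%.

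Divergent IDR members were also counted by chromosome. The divergent share of weaker regions on each chromosome was not taken, so these small counts do not set a chromosome apart. On chromosome III 13 of 22 IDR members were divergent, on V 10 of 15, on I 8 of 15, on IV 6 of 12 and on II 5 of 13. On the X chromosome it was 0 of 8. With 8 regions that count allows a share of up to 36.9% (exact 95% interval). The 5' ends of a divergent pair were a median of 533.5 bp apart in IDR members, 627 bp in other members and 656.5 bp in weaker regions.

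The products of both genes were looked at for some divergent IDR pairs. The region of B0495.9 is shared with the receptor-family gene sre-1, 927 bp away on the other side, and had a pooled signal of 170.4 (79.9 in replicate 1 and 87.4 in replicate 2). C16A11.2 shares its region with the F-box gene fbxc-44 and had 115.2 (50.2 and 63.4). In such a pair the nearest 5' end names the gene, and the data do not say which of the pair, if either, responds to ODD-2.

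Genes of known function stood at several other IDR pairs. Y22D7AL.10, annotated as the mitochondrial 10 kDa chaperone, stands head to head with hsp-60, the mitochondrial chaperonin it works with, and the region had 82.6 (47.6 in replicate 1 and 37.3 in replicate 2). The poly(A)-binding protein gene pab-1 stands beside rpl-30, a ribosomal protein gene, with 65.4 (24.8 and 36.1). The haf-6 and smg-2 region, smg-2 encoding a core factor of nonsense-mediated mRNA decay, had 99.4 (47.7 and 52.005). The pairs in this paragraph and the C16A11.2 pair were picked for their roles after their values were seen, and pair types were not counted.

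**Figure D4:**
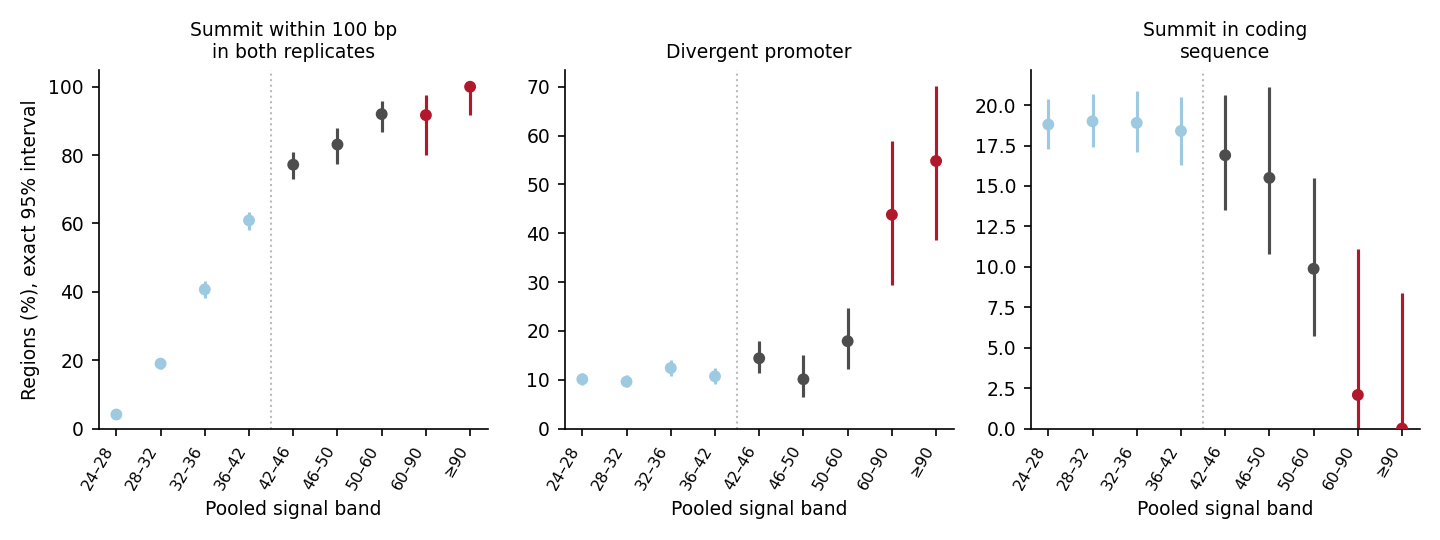
Share of promoter regions (y axis, %; bars are exact 95% binomial intervals) by band of pooled signal (x axis) for 3 features; light points are weaker regions below 42, dark points members from 42 to 60 and red points members of 60 or more, with the dotted line at 42. Recovery in both replicates climbs from 4.12% in the lowest band to all 42 regions in the highest, the divergent share lies between 9.61% and 17.9% up to 60 and is then 43.8% and 54.8%, and summits in coding sequence go down to 0%.

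IDR members lay closer to the annotated 5' end. The median distance of their summits from the nearest protein-coding 5' end was 160 bp upstream (interval 131 to 201 bp), against 286 bp (255 to 321) in other members and 301 bp (291 to 312) in weaker regions. Of the 85, 62 (72.9%) lay 0 to 300 bp upstream, against 35.2% of the other members and 30.8% of the weaker regions. Only 4 lay downstream of the 5' end (4.71%), against 16.4% and 19.1%. A summit between close 5' ends must be near to at least 1 of them, so the medians were also taken at single promoters alone. There they were 227 bp in IDR members (interval 160 to 288 bp), 322 bp in other members (286 to 368) and 335 bp in weaker regions (323 to 347). The intervals of the IDR and other members overlap there.

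The farthest summits were those at the edges of the window, at zfh-2 (1000 bp upstream), F26A1.9 (997 bp) and blos-9 (995 bp), all with pooled signals under 46. Among IDR members 6 lay more than 500 bp upstream. They included dhs-8, a short-chain dehydrogenase gene (974 bp, pooled signal 96.3), F08G2.5 (942 bp, 96.4) and unc-43, the calcium/calmodulin-dependent kinase II (896 bp, 82.5). The unc-43 gene has several annotated 5' ends and held 3 members, the others at 49.1 and 44.5.

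**Figure D5:**
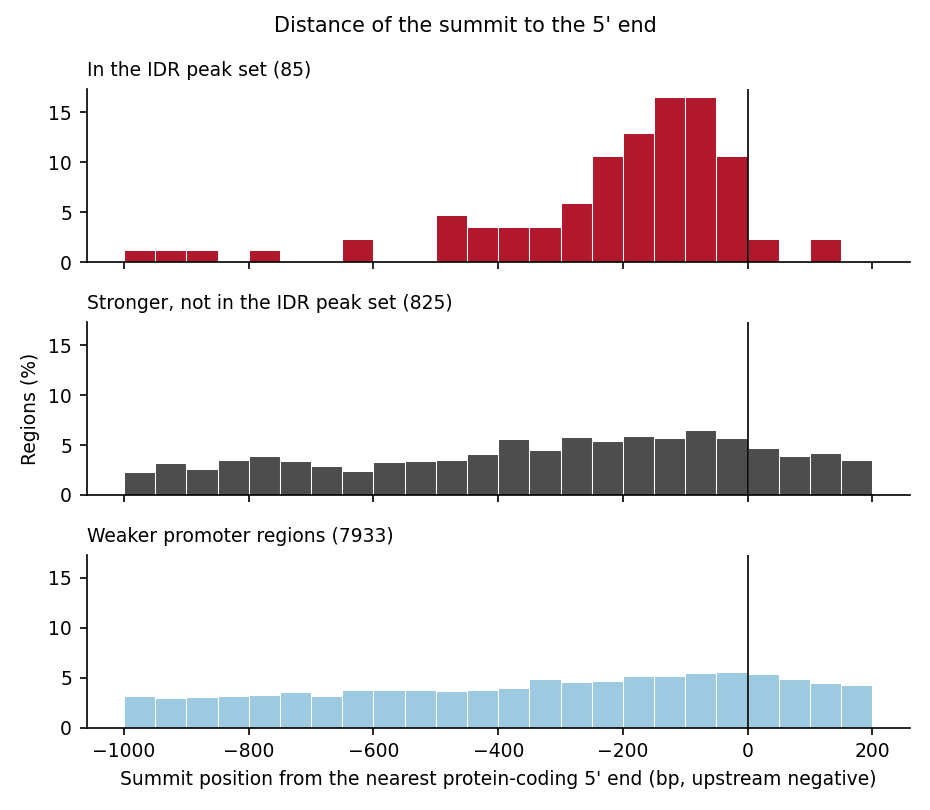
Share of regions (y axis, %) by position of the summit from the nearest protein-coding 5' end (x axis, bp in bins of 50, upstream negative, the vertical line at the 5' end) for IDR members, other members and weaker promoter regions. The 85 IDR members pile up in the first 250 bp upstream, with 16.5% in each of the bins from 50 to 100 and 100 to 150 bp, and the other groups are spread over the whole window.

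The surroundings of the summits differed in the same direction. Intergenic summits made up 70 of the 85 IDR members (82.4%), 48.6% of the other members and 3648 of the 7933 weaker regions. Summits in coding sequence made up 1 of the 85 (1.18%, at R12C12.6), 15.0% of the others and 18.8% of the weaker regions. Introns held 8.24%, 24.2% and 24.3%. The remaining 825 members were thus closer to the weaker regions than to the IDR members in orientation, distance and context.

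Base composition moved with signal as well. The median GC content of the 201 bp around the summit was 39.8% in IDR members, 35.32% in other members and 34.33% in weaker regions. Chromosome III held 22 of the 85 IDR members (25.9%), 19.4% of the other members and 14.4% of the weaker regions. The X chromosome held 9.41%, 15.8% and 14.3%, and the interval of the first, 4.15 to 17.7%, covers the others. Only 1 member lay within 50 kb of odd-2, the gene carried by the transgene, and that was T13C5.6, 47.9 kb away with a signal of 123. Within 50 kb of unc-119, whose allele the strain carries, there was also 1 member, 10.2 kb from the midpoint of that gene.

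Some of the short DNA words searched around the summit set the IDR members apart. Words were searched on both strands in the 201 bp centred on the summit, 18 in all. The word CGCACA can overlap by its first bases with GCGCAC or with the word CCGCAC. Likewise CTCCGCCC contains the shorter word CCGCCC, so these counts are not separate. CCGCCC was present at 38 of the 85 IDR members (44.7%, interval 33.9 to 55.9%), 5.70% of other members and 3.88% of weaker regions, and at 3.75% of all nuclear candidate regions. CGCACA was present at 37.6%, 5.58% and 4.63% (4.33% of all), and GCGCAC at 31.8%, 5.58% and 3.55% (3.05% of all). These 3 words were known from earlier results on the IDR peaks of these data, so their frequency there is no new observation. The members show how far down it extends. At least 1 of the 3 was held by 61 of the 85 IDR members (71.8%), 13.6% of the other 825 and 10.2% of the weaker regions.

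CCGCAC, TTGCGAAA, CTCCGCCC and CGCCGCAC were looked at after values were seen. CCGCAC was present at 43.5% of IDR members, 4.97% of other members and 2.84% of weaker regions (2.84% of all). TTGCGAAA was present at 25.9%, 2.67% and 1.84% (1.84% of all). CTCCGCCC was present at 27.1%, 1.45% and 1.30% (1.08% of all), and CGCCGCAC at 21.2%, 0.485% and 0.340% (0.337% of all). For CCGCAC the interval of the other members (3.59 to 6.68%) lay above that of the weaker regions (2.48 to 3.23%), as it did for divergent promoters. For CTCCGCCC (0.754 to 2.53% and 1.06 to 1.57%) the intervals overlapped.

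TTGCAA, which reads the same on both strands, was picked from the printed sequences. It was present at 38 of the 85 IDR members (44.7%, interval 33.9 to 55.9%), 13.3% of other members and 10.5% of weaker regions (11.0% of all). Among the 77 IDR members whose sequence is not printed the share was 44.2% (32.8 to 55.9%). GCGCGC, picked the same way, was present at 27.1%, 3.76% and 2.09% (1.63% of all), and at 22.1% of the 77. The 85 strongest promoter regions of replicate 1 alone held TTGCAA in 36.5% and those of replicate 2 alone in 41.2%, against 10.8% and 10.7% of the regions below the strongest 910. Most of these regions are the IDR members themselves (61 in replicate 1 and 65 in replicate 2), so the replicate shares are not independent of the choice of word.

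Words written with the same letters in reverse order have the same base composition. CCCGCC was present at 23.5% of IDR members, 4.24% of other members and 3.42% of weaker regions, so the reverse-order form of CCGCCC was also more frequent in IDR members. The same held for CGCGCG (for GCGCGC), at 17.6%, 2.42% and 1.70%. ACACGC (for CGCACA) was present at 14.1%, 4.61% and 3.55%, and CACGCG (for GCGCAC) at 12.9%, 4.24% and 2.63%. CACGCC (for CCGCAC) was present at 11.8%, 3.64% and 3.03%. AACGTT, the reverse-order form of TTGCAA, was present at 4.71%, 5.45% and 5.65%, and AAAGCGTT, that of TTGCGAAA, at 0%, 0.970% and 0.643%. The part of base composition in the shares of the GC-rich words was not tested.

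Several of these words lay nearer the summit in IDR members. Where present, the nearest CCGCAC was centred a median of 15.5 bp from the summit in IDR members, 38.5 bp in other members and 44.5 bp in weaker regions. The medians for TTGCAA were 22.5 bp, 46 bp and 46.5 bp. Of the IDR members that held TTGCAA, 86.8% had it within 50 bp, against 51.8% and 54.4%. TTGCAA was picked from printed runs around the summits of IDR members, and those members are included in these values. Its nearness to the IDR summits is therefore not independent of that choice, and it was not measured without the printed members. CCGCAC was also looked at after values were seen. CCGCCC was less centred, at 40 bp, 41.5 bp and 49 bp, and its longer form CTCCGCCC not at all, at 46.5 bp, 52 bp and 46.5 bp. A word placed at random in the window is centred within 50 bp of the summit about as often as not, which is what the weaker regions show.

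GCGCAC was the word that differed most by promoter type among those searched in advance. It was present at 45.2% of divergent IDR members (interval 29.8 to 61.3%) and 18.6% of single ones (8.39 to 33.4%), and these intervals overlap. TTGCAA was present at 47.6% and 41.9%. The words TATAAA and TGATAA, which resemble the TATA box and the GATA factor site, were less frequent in IDR members than in the other groups. They were present at 11.8% and 8.24% of IDR members, 21.9% and 20.0% of other members and 24.2% and 18.2% of weaker regions. For TGATAA the other members were thus not below the weaker regions. The part of base composition in these shares was not tested. ACAGTAGC, close to a site reported for the Drosophila Odd-skipped family, was present at none of the 910 members and at 0.366% of weaker regions, but at 4 of the 910 strongest regions of replicate 1 alone (0.440%). ACAGAAGC was present at 3 of the 85 IDR members (3.53%, interval 0.734 to 9.97%), 0.727% of other members and 0.479% of weaker regions (0.550% of all). No match says only that these letters are not in the window.

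At least 1 of the words marked in the printed runs or GCGCGC was held by 71 of the 85 IDR members (83.5%), 29.9% of the other members and 23.3% of the weaker regions (22.8% of all). The words were chosen on IDR regions, so the first share is a description of the regions they came from. The 14 IDR members with none included C06A5.3 (pooled signal 102), W01D2.3 (102), F08G2.5 (96.4), unc-43 (82.5), the translation factor gene iff-2 (79.1), rpl-15 (67.9) and pab-1 (65.4).

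The members had 880 different nearest genes, which is 4.41% of the 19973 nuclear protein-coding genes, and the IDR members had 85, which is 0.426%. With all genes whose window held a summit the number was 1062. A gene held 2 or more members in 28 cases, and 5 neighbouring pairs of members share bases, among them the ftt-2 summits of signal 206.9 and 45.8 and the atg-18 summits of 68.3 and 51.9. Of the members, 327 had a nearest gene known only by its sequence name. The gene families below were defined by WormBase symbols alone, with earlier results of these data known, and their counts are set beside those of all genes without a test.

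Of 26 gene families 17 had a higher share of genes nearest to a member than all genes. Such differences were not always particular to members. Genes with only a weaker region made up 32.2% of all genes and 39.1% of vesicle traffic genes. They made up 36.6% of translation factor genes and 53.7% of cell cycle and DNA replication genes. For the ubiquitin system (23.8%) and RNA polymerase and general transcription (27.9%) this share lay below all genes. Of 92 vesicle traffic genes 14 were nearest to a member (15.2%), 1 of them in the IDR set. That was rab-18, a small GTPase of lipid droplets and membranes, whose summit lay 111 bp downstream. The region had 71.4 pooled, 32.6 in replicate 1 and 36.8 in replicate 2. Others were apb-1, an adaptor subunit (56.6), arf-1 (56.5) and rab-14 (54.6). Among the 910 strongest regions of replicate 1 alone 12 fell at genes of this family and among those of replicate 2 alone 13, against 15 members. For 15 of the 26 families the count from at least 1 replicate alone differed from the pooled count by more than 1.5 times.

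Translation genes were also represented. Of 41 translation factor genes 6 were nearest to a member (14.6%), including erfa-3, which acts in termination (111, IDR set), and iff-2 (79.1, IDR set). The family held 7 members, whereas it held 2 of the 910 strongest regions of replicate 1 alone and 5 of those of replicate 2 alone. Of 81 cytosolic ribosomal protein genes 8 were nearest to a member (9.88%), and rps-28 (91.7), rpl-3 (90.2) and rpl-15 (67.9) were in the IDR set. Of 31 tRNA synthetase genes 2 were nearest to a member (6.45%), ears-2 (203.9) in the IDR set and gars-1 (49.2) outside it.

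Several other families of cellular machinery had shares above that of all genes, each on a few genes. Those for the cell cycle and DNA replication (5 of 54), the proteasome (3 of 33), mitochondrial ribosomal proteins (6 of 70), the ubiquitin system (5 of 63) and chaperones (5 of 70) had shares of 7.14% to 9.26%. From replicate 1 alone 1 region fell at proteasome genes and from replicate 2 alone 5, and for chaperones the numbers were 9 and 4, so these small counts differ between replicates. The chaperone genes dnj-29 (148) and hsp-1, an Hsp70 (84.7), and the ubiquitin-system genes uba-5, the activating enzyme of the UFM1 pathway (154), and usp-4 (108) were in the IDR set. Shares of 5.45% to 8.20% belonged to RNA polymerase and general transcription (5 of 61), the tricarboxylic acid cycle (2 of 26), the respiratory chain and ATP synthase (5 of 66), germline granules (1 of 13), chromatin (5 of 81), splicing (3 of 50) and tubulin, actin and motors (3 of 55). Each replicate alone gave 3 regions for RNA polymerase and general transcription, against 6 members, and 3 for the respiratory chain, against 5. For splicing replicate 1 alone gave 2 regions and replicate 2 alone 6, against 3 members, and for tubulin, actin and motors 5 and 2, also against 3. Counts this small do not set these families apart from all genes. Below all genes were ribosome biogenesis (1 of 27, krr-1) and nuclear pore and transport (1 of 42, ran-3). No histone gene (0 of 72) and no vacuolar ATPase gene (0 of 20) was nearest to a member, though replicate 1 alone gave 2 and 1 regions for them and replicate 2 alone 1 each.

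Large families of receptors and secreted or regulatory proteins had shares below that of all genes. For 3 of them genes with only a weaker region were also less frequent than among all genes (32.2%). The shares were 24.6% of chemoreceptor genes, 23.1% of C-type lectin and F-box genes and 21.8% of collagen genes. Among nuclear receptor genes the share was 33.5%. Of 1086 chemoreceptor genes 16 were nearest to a member (1.47%), 1 of them in the IDR set. Of 562 C-type lectin and F-box genes it was 14 (2.49%), of 269 nuclear receptor genes 9 (3.35%) and of 174 collagen genes 7 (4.02%), with none in the IDR set. Replicate 1 alone gave 6 regions at collagen genes and replicate 2 alone 2, against 7 members. For nuclear receptors the numbers were 10 and 6, against 10. Of 99 homeobox, bHLH and Odd-family genes 3 were nearest to a member, ceh-38 (52.01 and 46.89), ceh-30 (44.7) and hlh-33 (42.1). From replicate 1 alone 3 regions fell at this last family and from replicate 2 alone 9, against 4 from the pooled file. Among GATA factor genes, some of which specify the gut in worms, end-3 was the only gene of 10 nearest to a member. Its region had 42.9 pooled, 13.9 in replicate 1 and 23.2 in replicate 2. With 1 of 10 genes this family lies above all genes, on that single gene.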

How the data were processed

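ChIP-seq candidate regions of 1 group, late embryos with 2 biological replicates, were analysed. Each candidate file lists 30000 regions with the signal per region that the authors computed against a control file, per the deposited file list. Candidates of the pooled reads and of each replicate served as input to IDR. Depth is unknown. Aligner, peak caller, IDR threshold and signal scale: not given in the sources used here. Only ce11 files were used, and no position was converted between builds.

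Regions were placed by summit against Ensembl release 115. The gene of the nearest protein-coding 5' end named a region. A promoter was divergent when 5' ends of 2 genes on opposite strands, pointing away from each other, both held the summit in their window. Every member is 330 bp wide. Membership in the IDR set required identical bounds. Placement and word searches were tested on simulated data. Intervals were computed with scipy 1.17.1 (Python 3.11.15, numpy 2.4.6), and figures with matplotlib 3.10.9.

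The members, gene families, words and named-gene rule were chosen with earlier results of these data known. The rule took the 25 strongest members, those at the threshold and at the IDR border, those with the most unequal or missing replicate signals, those at the window's edges, up to 4 per family, and genes with several members. Members named for their pairing or for lacking words were picked after values were seen.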

Additional observations from a re-analysis of the deposited data

How the results depend on the processing

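Other signal thresholds changed how many regions were members and what they shared. At 36 there were 2239, with 3.80% in the IDR set, 69.9% in both replicates, 13.4% divergent and a median GC content of 34.83%. At 50 there were 252, with 33.7%, 93.3%, 29.0% and 37.81%, and a median distance of 208 bp. The window of 500 bp upstream to 100 bp downstream gave 596 members, 14.6% divergent, at a median of 177 bp. Summits within 50 bp were shared by both replicates for 65.2% of members, and within 200 bp for 91.4%. The 910 strongest regions of a single replicate gave divergent shares of 16.3% to 17.1% and shares on the X chromosome of 12.7% to 15.1%. The 37 other values of these summary results kept within their intervals or 1.5 times their counts. Single words and families moved more often. Of 96 word shares 31 left their interval. Among them were 10 of 12 with the search window narrowed to 50 bp and 8 of 12 with it widened to 150 bp. Of 130 family counts 70 moved by more than 1.5 times, among them 21 of 26 at a threshold of 36 and 20 of 26 at 50. A word share changes with the search window and a family count with the number of members, so moves under these settings do not measure stability. The words more frequent in members than in weaker regions were 9 of 12 in the main setting, 9 at 50 bp and 10 at 150 bp. At thresholds of 36 and 50 there were 8, from replicate 1 alone 11 and from replicate 2 alone 9. A difference of any size counted, such as that of TGATAA (18.9% of members and 18.2% of weaker regions). As alternatives chosen after seeing the data, leaving out regions within 50 kb of odd-2 kept the divergent share of IDR members inside its interval, and the strongest 85 of each replicate gave 41.2% to 42.4%. No paired analysis was possible because there is 1 group.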
